A study of Homo sapiens with 2 samples.

Results

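The chromosome 12 hub near WSCD2 is a single 5-kb bin, chr12:108045001-108050000 in hg38, that took part in 44 of the 49245 interactions in a list of TCF3::HLF-HiChIP contacts. It was chosen by its number of interactions in earlier results of the same list. The nearest protein-coding gene toward higher positions on the chromosome, WSCD2, starts 79.3 kb past the end of the bin, and 20 interactions had a bin in WSCD2 or within 10 kb of it. Of these, 6 were interactions of the hub itself, so that hub and gene together gave 58 interactions with a summed contact count of 2009.

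HiChIP joins DNA ends that lie close together in the nucleus and enriches the joined fragments with an antibody, so that the read pairs are enriched for contacts of sites bound by the targeted protein. The HiChIP was carried out in HAL-01, a human leukemia cell line with t(17;19), which fuses TCF3 to HLF. The cells were a single line expressing Cas9 and GFP, selected for stable knockout of wild-type TCF3, so that the anti-TCF3 antibody precipitated the remaining TCF3::HLF fusion. Both biological replicates were of this 1 condition, TCF3-KO HAL-01, without an untreated or antibody control in the list, and the authors merged them before calling interactions. Each value below therefore exists once, without a replicate error, and no difference was tested. The knockout and the cell type were not checked, since the list holds contacts only.

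TCF3::HLF combines the activation domains of TCF3, a basic helix-loop-helix transcription factor also called E2A, with the bZIP DNA-binding domain of HLF. HLF belongs to the PAR bZIP family, which binds palindromic sites such as TTACGTAA and its close form TTATGTAA (called HLF forms from here on). WSCD2 encodes a membrane protein with a WSC domain and a sulfotransferase domain. Sulfotransferases of the Golgi transfer sulfate to sugars or tyrosines of proteins on their way to the cell surface.

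The hub bin overlapped no gene and held a single HLF form, 23 bp from its center. The site is shown with 100 bases on each side, since it is the only HLF form in the hub bin. Where in the bin TCF3::HLF binds was not analysed. Capitals mark the HLF form in this and the following sequences.
Hub, chr12:108047374-108047581, plus strand: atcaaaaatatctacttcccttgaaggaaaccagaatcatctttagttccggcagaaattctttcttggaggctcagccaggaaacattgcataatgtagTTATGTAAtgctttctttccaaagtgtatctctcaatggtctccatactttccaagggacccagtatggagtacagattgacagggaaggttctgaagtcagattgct

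Between the hub and WSCD2, the bin chr12:108115001-108120000 held both forms within a short span. They lie 11543 and 11491 bp before the start of WSCD2, 52 bases apart. Both are thus outside the 10 kb on that side, which only the end of this bin overlaps. The bin is still called the upstream flank bin here. The span is shown because this bin carried more interactions than any other bin of the WSCD2 window, as described below. The second form reads TTACATAA on the plus strand, which is TTATGTAA on the minus strand.
Upstream flank of WSCD2, chr12:108117735-108117814, plus strand: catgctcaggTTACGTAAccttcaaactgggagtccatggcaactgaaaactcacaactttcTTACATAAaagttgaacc

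The 3 partner sites below stand for the hub's strongest contact, a contact inside WSCD2 and a contact at a gene start. They are printed in the orientation of the motif with 20 bases on each side.
Partner at +420 kb, in LINC01498, chr12:108466802-108466849, plus strand: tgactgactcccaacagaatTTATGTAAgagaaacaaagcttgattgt
Partner at +135 kb, in WSCD2, chr12:108182676-108182723, minus strand: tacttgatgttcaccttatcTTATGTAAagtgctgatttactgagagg
Partner at +515 kb, between SART3 and ISCU, chr12:108561641-108561688, plus strand: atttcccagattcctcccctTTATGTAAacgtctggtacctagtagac

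The contact count is the number of read pairs that join 2 bins. It is not normalized. Over the whole list, contact counts summed to 1268490, and this is the only depth the list gives. The median contact count of the list was 24 (range, 7 to 615), and its bins lay 50 kb to 3 Mb apart. Intervals given with contact counts are exact Poisson 95% intervals. They cover counting error only and are too narrow, because the authors left PCR copies of read pairs in the counts. A contact count cannot tell a contact made in more cells from one made more often per cell.

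By the number of interactions, the hub ranked 5 among 53535 anchor bins and 1 on chromosome 12, where the bin with the next largest number had 28. The bins just above and below it in the whole list had 49 and 40. Its contact counts summed to 1639, which ranked 7. Its 44 contact counts ran from 15 to 138 with a median of 29.5. These values chose the hub or follow from that choice, and they are given as a description. With a q-value under 1e-05, a stricter limit than the 0.01 of the authors, 31 of the 44 interactions remained (70.5%), beside 66.5% of all listed interactions. The hub's interactions were thus about as often past the stricter limit as any others.

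The strongest contact joined the hub to a bin 420 kb away in LINC01498, a long noncoding RNA gene, with a contact count of 138 (95% interval, 116 to 163). This was 6.27 times the median contact count of the 153 listed interactions of the same distance, and the largest of them. Its merged group of neighboring bin pairs spanned chr12:108460001-108480000 with a sumCC (sum of the contact counts in the group) of 465. The second largest was in intron 4 of WSCD2 at +170 kb, with a contact count of 127 (106 to 151). It was 5.29 times the median of its distance and the largest of 477. These 2 contact counts were above the others of the hub, whose intervals, which cover counting error only, all lay below 106 read pairs.

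Next came a bin at +55 kb, in the interval between hub and WSCD2, with a contact count of 72 (56.3 to 90.7). It was followed by bins in intron 1 of WSCD2 at +135 kb, with 69 (53.7 to 87.3), and at +145 kb, with 67 (51.9 to 85.1). The intervals of these 3 overlap, so their order is not resolved. The 5 partners with the largest contact counts were also those with the smallest FitHiChIP P values, and all 5 lay on the side of WSCD2. On the other side, the largest contact count was 54 (40.6 to 70.5), at -130 kb, outside of any gene.

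The farthest contact on each side was near the limit of 3 Mb that the authors set. The 2 farthest at lower positions were with a bin in APPL2, an endosomal adaptor protein gene, at -2840 kb, with a contact count of 15 (8.40 to 24.7), followed by a bin outside of genes at -2265 kb, with 16 (9.15 to 26.0). At higher positions they were with a bin near the start of MYL2, which encodes a regulatory light chain of cardiac myosin, at +2880 kb, with 17 (9.90 to 27.2), and a bin outside of protein-coding genes at +1600 kb, with 27 (17.8 to 39.3). Except for the last, with a ratio of 1.42, these lay below the median of their distance (ratios, 0.627 to 0.938). The medians at these distances rest on only 10 to 19 listed interactions each. Of the 44 partners, 11 (25%) were more than 1 Mb away, beside 13.7% of all listed interactions. In the other 9 of the 10 bins with the most interactions in the list, this share ran from 12.5 to 33.8%, so the hub lay inside their range.

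More partners lay at higher positions, the side of WSCD2, than at lower ones. The numbers were 28 and 16, a share of 63.6% (Wilson 95% interval, 48.9 to 76.2%). The interval includes an even split, but it treats the partners as independent although they share 1 bin. The same holds for the other intervals of shares of partners and for that of the median ratio, and none of them is a test. Contact counts summed to 1176 on the higher side and 463 on the lower side, with medians of 31.5 and 27. A contact count over 40 was found for 10 partners on the higher side and 3 on the lower side. The contrast was seen up to 1 Mb. Within 200 kb there were 7 partners at higher positions (contact counts, 31 to 127) and 3 at lower ones (43 to 54), from 200 to 500 kb 8 (22 to 138) and 4 (22 to 40), and from 500 kb to 1 Mb 8 (18 to 43) and 3 (18 to 28). Beyond 1 Mb, the sides held 5 (15 to 34) and 6 (15 to 33).

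Each contact count was divided by the median of all listed interactions at exactly its distance. These medians changed little over most of the range, with 26 at 55 kb, 22 at 420 kb, 24 at 1300 kb and 16 at 2840 kb. The list holds only interactions that had passed the q-value limit. The ratio thus compares listed interactions with each other and is not an enrichment over expected contact. The median ratio of the hub's interactions was 1.25 (95% interval from order statistics, 1.13 to 1.48). A total of 33 had a ratio of 1 or more and 11 a lower one, and 10 exceeded 2. The median ratio was 1.39 on the higher side and 1.18 on the lower side. Among the 10 bins with the most interactions in the whole list, the median ratio ran from 1.04 to 1.48, so the hub lay inside their range.

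Of the hub's interactions, 32 (72.7%) were single bin pairs without a significant neighbor, beside 92.3% of all listed interactions. The share was 66.7 to 86.0% in the other 9 of the 10 bins with the most interactions, a range that includes the hub. The other 12 interactions of the hub belonged to 10 merged groups. One of these groups, with a sumCC of 422, held the contacts at +145 and +170 kb in WSCD2, and another, with a sumCC of 141, held contacts at +275 and +290 kb in CMKLR1.

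The bin directly beside the hub, chr12:108050001-108055000, held the second largest number of interactions within 3 Mb, 21, with contact counts of 17 to 97. It held no HLF form. None of its partners was a partner of the hub, 5 lay within 10 kb of one, and 1 pair was merged into a group with a hub contact. Nearby contacts were merged in the list, which limits how often adjacent bins can both be listed with the same partner. The lack of shared partners therefore cannot show that the 2 bins have distinct contacts. Together the 2 bins had 65 interactions, and whether they share a single site was not tested. Its largest contact count, 97 (78.7 to 118), was with a bin 50 kb below the hub. It also contacted a bin with exon 6 of WSCD2 with 52 (38.8 to 68.2), ABTB3 with 51 (38.0 to 67.1) and a bin within 10 kb of the start of FICD with 43 (31.1 to 57.9).

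Within 3 Mb of the hub on both sides there were 175 interactions, of which 44 (25.1%) were those of the hub. A further 31 passed over it from one side to the other (median contact count, 23), 24 lay wholly on the lower side and 76 on the higher side. Apart from the bin beside it, the largest number in this region was 10, at the start of VPS29, a subunit gene of the retromer complex. The hub thus held several times the interactions of any bin that was not its neighbor.

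For 36 of the 44 (81.8%; Wilson 95% interval, 68.0 to 90.5%), the contact with the hub was the only one listed, 8 had 1 more, and none had over 2 in all. Bins with 1 interaction made up 78.0% of all anchor bins and 42.4% of all interaction ends, and 63.3 to 92.5% of the partners of the other 9 bins with the most interactions. The hub was thus not set apart from these bins by this share. None of the listed interactions joined 2 partners to each other. Contacts below 50 kb are not listed, nearby contacts were merged, and interactions were called with peaks as reference, so that a contact between partner bins could be listed only within these limits.

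Of the 8 other contacts of partners, 4 went to the same bin, 45 kb below the hub (chr12:108000001-108005000). It contacted the hub's partners in LINC01498, with a contact count of 48 (35.4 to 63.6), and at -110 kb, with 41 (29.4 to 55.6), and in WSCD2 at +170 kb, with 24 (15.4 to 35.7), and at +125 kb, with 17 (9.90 to 27.2). This bin lies too close to the hub for a contact between them to be listed, and it held no HLF form. Both of the strongest partners of the hub were thus also contacts of a bin nearby.

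WSCD2 (ENSG00000075035.10) spans chr12:108129288-108250537 on the plus strand, with 9 exons and protein-coding starts at 108129288, 108129806, 108131751 and 108195833. Its 20 interactions used 10 of the 30 bins in the gene and 10 kb on each side and summed to a contact count of 752. The 6 contacts of the hub gave 382 of it, and the other 14 gave 370. By the number of interactions WSCD2 ranked 608 of 19970 protein-coding genes counted in the same way, and 95 of the 1454 genes whose length was within 20% of its own, whose median was 4. Both ranks include the 6 contacts of the hub. They thus follow in part from the choice of the hub and are given as a description.

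The hub's contacts with WSCD2 ran from the first exon to intron 4 of the gene. From the start into the gene, the contact counts were 31 (21.1 to 44.0) in the bin of the first exon, 52 (38.8 to 68.2), 36 (25.2 to 49.8), 69 and 67 in intron 1, and 127 in intron 4. The lowest was thus at the start of the gene and the highest inside it, 85.7 kb past the start. Their intervals do not overlap, but these cover counting error only and are too narrow. Relative to the median of the same distance, they were 1.15, 2.08, 1.38, 2.76, 2.79 and 5.29. The contact at +145 kb lies within 10 kb of the start at 108195833, which begins a shorter protein-coding transcript.

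**Figure D1:**
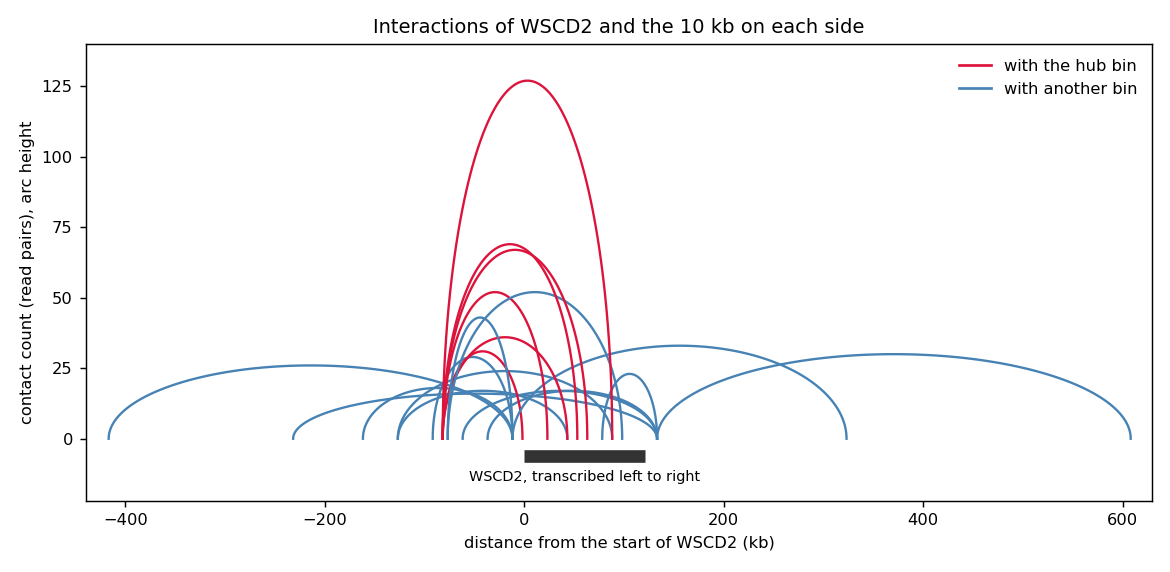
Interactions of WSCD2 and 10 kb on each side against the distance from the start of the gene (kb), as arcs whose height is the contact count (read pairs), in red for the 6 with the hub and in blue for those with other bins. An interaction with a bin in MYO1H, 1260 kb away, lies beyond the axis. The red arcs reach 31 to 127 and the blue ones 16 to 52.

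The 14 interactions of WSCD2 without the hub had contact counts of 16 to 52 (median, 24.5), beside a median of 59.5 for those with it. Most of them had an end in the flanks of the gene. The upstream flank bin with the pair of HLF forms had 6 interactions. Its contact counts were 43 with the bin beside the hub, 33 with a bin in LINC01498 that the hub contacted too, 29 with a bin 10 kb below the hub, 26 with PWP1, 25 with MYO1H and 18 with a bin 80 kb below the hub. The downstream flank bin at chr12:108260001-108265000 had 5, with contact counts of 16 to 30, and no HLF form. Inside the gene, the bins that did not contact the hub were in contact with the bin beside the hub (52) and with the downstream flank (23).

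Around the hub, 60 protein-coding genes had a start within 3 Mb, and 18 of them (30%) had a start within 10 kb of a partner bin. This share was not set beside that of other bins with many interactions. Of the 60, 43 had an interaction of any kind within 10 kb of a start, beside 9700 of all 19626 protein-coding genes (49.4%). For 12 of the 18, the contact with the hub was the strongest listed. All 18 were counted because they had a hub contact. The number 12 was not set beside that of other bins and is a description only. Among the 12, ASCL4, SVOP and MYL2 had no listed contact with any other bin at this distance from a start. For these 3, the hub contact could only be the strongest. With the start inside the partner bin itself, 8 genes were counted. PRDM4, POLR3B, RFX4, ABTB3, SSH1, DAO and ACACB were counted only through a start inside the gene. Their annotated gene starts lay more than 10 kb from every partner bin. Whether any of these genes is transcribed in HAL-01 cannot be read from the list.

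The highest contact counts at gene starts were found near the hub on the side of WSCD2. For WSCD2 the 67 belongs to the internal start at 108195833, and at the annotated start of the gene the contact count was 31. CMKLR1, which encodes the receptor for chemerin, had 3 hub contacts and a largest contact count of 55 (41.4 to 71.6), near an internal start. In the bin of its annotated start, the contact count was 29 (19.4 to 41.6). FICD, which encodes an enzyme that adds AMP to the chaperone BiP in the endoplasmic reticulum, had a contact count of 47 (34.5 to 62.5). The same bin lies within 10 kb of a start of SART3, a splicing factor gene. A second contact of SART3, with 34 (23.5 to 47.5), fell on the bin that spans the 1181 bp between it and ISCU, a scaffold for iron-sulfur cluster assembly. The HLF form in this bin, printed above, lies 261 bp before the start of SART3 and 921 bp before that of ISCU, which are transcribed away from each other.

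Farther out, DAO (D-amino acid oxidase) had a contact count of 43 (31.1 to 57.9) at +845 kb, which was 2.15 times the median of its distance and ranked 2 of 57. For CORO1C, which encodes an actin-binding coronin, and SSH1, a phosphatase of cofilin, the hub's largest contact counts of 27 (17.8 to 39.3) and 23 (14.6 to 34.5) were below the 42 that each had with another bin. Near the annotated start of CORO1C, the contact count with the hub was 21 (13.0 to 32.1). SVOP, a synaptic vesicle protein, and USP30, a mitochondrial deubiquitinase, share a start region with hub contacts of 20 (12.2 to 30.9) each. MYO1H, an unconventional myosin, had 34 (23.5 to 47.5) at +1290 kb. ACACB, a mitochondrial acetyl-CoA carboxylase, had 13 interactions near its starts, of which the hub contact of 15 (8.40 to 24.7) ranked 12 and had the weakest q-value of the hub's interactions, 0.00994.

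On the lower side, PRDM4, a zinc finger protein, had the highest contact count of the gene starts, 40 (28.6 to 54.5), near a start inside the gene. It was followed by POLR3B, a subunit of RNA polymerase III, with 33 (22.7 to 46.3), ASCL4, a basic helix-loop-helix factor, with 31 (21.1 to 44.0), and ABTB3, an ankyrin repeat and BTB domain protein, with 28 (18.6 to 40.5). RFX4, a winged-helix transcription factor, had 16 (9.15 to 26.0), below the 31 of the bin beside the hub with the same gene. The intervals of PRDM4, POLR3B, ASCL4 and ABTB3 overlap. Between contacted genes, some starts had no listed contact with the hub. TMEM119, a marker gene of microglia, had 0 interactions, and SELPLG, which encodes the selectin ligand PSGL-1, had 2 with other bins.

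An HLF form was found in 7 of the 44 partners (15.9%; Wilson 95% interval, 7.93 to 29.4%), beside 31.5% of all anchor bins. In anchor bins with 1 interaction, as most partners were, the share was 28.5%, inside the interval of the partners. It was 30.9% in the 26603 bins of chromosome 12 and 24.7% in the 1000 bins around the hub that were no anchors. The median GC content was 45.4% in the partners and 39.8% on chromosome 12. In the 4084 bins of chromosome 12 within 2 percentage points of the partners' median GC content, 22.5% held a form, which lies inside the interval of the partners. Whether the share of the partners depends on their GC content was not tested. For the other 9 of the 10 bins with the most interactions, the share of partners with a form ran from 5.00 to 45.1%. The CTCF core was found in 10 of the 44 partners (22.7%), beside 11.3% of the bins of chromosome 12. This share was not set beside that of anchor bins or of bins of like GC content. A match is a string of letters, and no binding of TCF3::HLF or CTCF to these bins was analysed here.

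The 7 partners with an HLF form lay at -2840, -265, +105, +135, +420, +515 and +985 kb, the one at +135 kb with 2. Their median contact count was 34 and their median ratio 1.48, beside 28 and 1.22 for the 37 partners without a form. The ratios ran from 0.87 to 6.27 in the 7 and from 0.627 to 5.29 in the 37. The 2 sets thus overlap widely, and their difference was not tested. Of the 10 partners with the largest contact counts, 3 held a form, the contact of 127 in intron 4 of WSCD2 not among them. Among all bins with 10 or more interactions, 66.7% held an HLF form and 44.1% exactly 1, as the hub did.

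Near-identical sequence can place a read pair at the wrong bin. Of the 31-base words of the hub, 98.6% occur once in hg38, and in its partners the median was 93.9% (range, 56.9 to 100%). Only 2 partners shared any word with the hub, and no more than 1 each. This does not cover partner words that recur elsewhere in hg38. No reads were examined, and whether read pairs were misplaced was not tested.

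Among the Golgi sulfotransferase genes, all 39 listed were matched, and 23 (59.0%) had an interaction within 10 kb of a start, beside 49.4% of all protein-coding genes. The median was 1 interaction, beside 0 for all genes. CHST15, which sulfates chondroitin sulfate, had the most with 17 and a largest contact count of 79 (62.5 to 98.5). CHST13, a further chondroitin sulfotransferase, had 11, with a largest contact count of 51 (38.0 to 67.1). WSCD2 and TPST2, a tyrosylprotein sulfotransferase, had 9 each, with largest contact counts of 67 and 64 (49.3 to 81.7). For WSCD1, the paralog of WSCD2 on chromosome 17, 0 interactions were listed.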

How the data were processed

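TCF3::HLF-HiChIP was analysed from TCF3-KO HAL-01 cells (2 biological replicates, 1 group). The authors trimmed reads (Trim Galore 0.6.6, per the labels), merged the replicates, aligned them to hg38 with BWA, left out deduplication, called MACS2 peaks as reference, and called and merged interactions of 5-kb bins with FitHiChIP (version not given in the sources used here; q-value under 0.01). The authors deposited raw contact counts, sumCC (summed counts of a merged group), p-values and q-values from the FitHiChIP background, and the fraction of significant bin pairs in a group. Since deduplication was left out, PCR copies can raise single counts. The deposited list holds no reads or matrix, so depth is known only as summed contact counts.

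Members and lists were chosen with earlier results of these data known. Interactions of the hub bin, and of WSCD2 with 10 kb on each side, were taken from the list. Starts and genes were from GENCODE release 44, and 0 bins lay past a chromosome end. HLF forms were exact matches to TTACGTAA or TTATGTAA on either strand of hg38. The CTCF core was matched in the same way, with N for any base. A site found on both strands was counted once. Computations were tested on simulated data. Genes named were WSCD2, protein-coding genes with a start within 10 kb of a hub partner, the 5 partners with the largest contact counts and the 5 with the smallest P values, the 2 farthest on each side, WSCD1 and the 3 sulfotransferases with the most interactions. APPL2 and LINC01498 overlap such partners. PWP1, VPS29, TMEM119 and SELPLG were named after seeing their values. The alternatives tried were stricter q-values, contact counts of 20 or more, a limit of 1 Mb on the distance, other widths of hub and gene, merged ranges, looser motifs and other distance controls. Sequences were read with samtools 1.23.1 and pyfaidx 0.9.0.4, tables with Python 3.11.15 (pandas 2.3.3, numpy 2.4.6), intervals came from scipy 1.17.1, and plots were drawn in matplotlib 3.10.9.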

Additional observations from a re-analysis of the deposited data

How the results depend on the processing

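Of 24 alternatives, 19 left the values within 1.5 times of those reported. The 44 interactions of the hub became 31 to 41 with stricter q-values, 37 with a contact count of at least 20, 33 up to 1 Mb, 66 when its neighboring bins were added and 47 with merged ranges. Counting only contacts merged with a neighboring bin pair left 12. The 20 interactions of WSCD2 became 10 in the gene body only and 14 to 25 otherwise. The 18 genes contacted became 8 with the start inside a partner bin, 11 with the annotated gene start as the only start, and 13 to 16 otherwise. The 7 partners with an HLF form became 9 with TTATATAA added and 24 (54.5%) with up to 1 mismatch to TTACGTAA, beside 44.4% and 64.3% of all anchor bins. The median ratio was 1.25 and 1.26 under its alternatives, and the share of partners at higher positions was 64.5% with a q-value under 1e-05. The merged groups and the annotated gene start were alternatives chosen after seeing the data. No paired analysis was possible because there was 1 group, whose replicates were merged before calling, and for the same reason no replicate could be left out. The smallest contact counts of the hub, 15, have intervals from 8.40 to 24.7.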
